A study of Rattus norvegicus with 12 samples.

Results

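Hox genes encode homeodomain transcription factors that give cells their position along the head-to-tail axis. They lie in clusters, and genes at one end of a cluster act in more anterior regions than genes at the other end, which carry the higher numbers in their names. In the gut of mouse and human the posterior genes, Hoxb13 and Hoxa13 among them, are active towards the distal colon and rectum, while genes from the middle of the clusters, such as Hoxb6 and Hoxb7, reach into more proximal gut.

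The 8 Hox genes described here, Hoxb13, Hoxa13, Hoxa11, Hoxd10, Hoxd9, Hoxb7, Hoxa7 and Hoxb6, were taken by name from the gene spots of 12 single-colour arrays of rat colonic epithelium, on which 10451 genes were tested. High protein feeding is represented by 6 arrays and normal protein feeding by 6 arrays. The animals were male Wistar rats of 180 to 200 g, fed for 6 weeks. No genetic change is given for either diet. The labels number the replicates but do not say that each is a separate animal, nor from which stretch of the colon a sample was taken, so p-values measure the spread between these samples and the values describe arrays, not places along the colon. The genes were chosen by their log2 values over these same 12 arrays, and their levels are therefore described without a test. Only the diet difference is tested. Of the 8 genes, 7 were matched by the array's own gene name. The eighth probe is named Hoxa9 on the array, but its sequence record belongs to Hoxa7 in the RefSeq table of rat genes (GRCr8), where Hoxa9 stands as a synonym. It is called Hoxa7 below, with that doubt. Each gene had 1 probe, so values are compared between arrays within a gene and never between genes.

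All 8 probes passed the filter, which asks for a spot that the scanner software flagged as good on at least 6 of the 12 arrays. The spots of Hoxa13, Hoxa11 and Hoxa7 were flagged good on 12 arrays, those of Hoxd10, Hoxd9 and Hoxb7 on 11, that of Hoxb6 on 10 and that of Hoxb13 on 9. Between 42.7% and 55.9% of gene spots were flagged good on an array, the lowest share being that of normal protein replicate 3. That array is also the one on which the spots of Hoxd10, Hoxd9, Hoxb7 and Hoxb6 were not flagged good, and that of Hoxb6 was not on normal protein replicate 2 either. Pearson correlation between whole arrays ran between 0.923 and 0.985, and no pair of arrays was identical. All 12 listed epithelial markers were tested, and their mean log2 value was lowest in high protein replicate 3, at 11.59, and in normal protein replicate 6, at 11.77, against 11.93 to 12.59 on the other arrays. Markers of other cells passed the filter as well: 10 of 12 listed for smooth muscle, 11 of 12 for fibroblasts and matrix, 6 of 8 for endothelium, 6 of 10 for neurons and glia and 6 of 12 for immune cells. Fewer cells of a type and less RNA per cell cannot be told apart in such samples.

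Of the 8 genes, 5 have a promoter in the RefSeq promoter table (GRCr8), each running from 250 bases before the gene's start to 50 bases after it. Those of Hoxa13 and Hoxd9 are printed because these 2 genes ran opposite to each other over the arrays. Capitals mark CG dinucleotides, which are frequent at Hox gene starts. The Hoxa13 promoter lies at chr4:82691652-82691951 on the minus strand, and the Hoxd9 promoter at chr3:80007756-80008055 on the plus strand.
Hoxa13: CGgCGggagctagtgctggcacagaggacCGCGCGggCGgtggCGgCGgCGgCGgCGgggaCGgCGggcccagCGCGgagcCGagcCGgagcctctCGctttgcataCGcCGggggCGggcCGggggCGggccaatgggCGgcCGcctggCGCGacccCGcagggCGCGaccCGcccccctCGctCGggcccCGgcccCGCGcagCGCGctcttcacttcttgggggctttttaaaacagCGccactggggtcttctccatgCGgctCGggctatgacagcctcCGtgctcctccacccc
Hoxd9: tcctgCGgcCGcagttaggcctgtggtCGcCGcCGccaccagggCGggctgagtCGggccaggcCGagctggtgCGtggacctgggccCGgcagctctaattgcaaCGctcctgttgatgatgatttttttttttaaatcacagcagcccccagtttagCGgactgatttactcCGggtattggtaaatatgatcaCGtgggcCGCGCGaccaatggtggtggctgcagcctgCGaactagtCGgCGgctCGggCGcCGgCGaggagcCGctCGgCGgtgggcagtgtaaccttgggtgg
The Hoxa13 window holds 42 CG dinucleotides and 76.7% G and C bases, and the Hoxd9 window 27 and 62.7%. Over 33469 rat promoters of the same length the medians were 7 CG dinucleotides and 51.7%. The windows of Hoxa7 (29), Hoxd10 (24) and Hoxa11 (13) also held more CG dinucleotides than the median, and 35.3% of all promoters held at least 13. The letters TTTAT, a core shared by binding sites of CDX and posterior HOX proteins, were searched on both strands (ATAAA on the other). They occur in 0 of the 5 windows and in 42.5% of all promoters, which says only that these letters are not in these windows. Hoxb13, Hoxb6 and Hoxb7 have no entry.

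Hoxb13 varied most of the 8 genes. Its normalized log2 intensity had a lowest value of 6.12, a median of 12.15 and a highest of 12.56 on high protein arrays, against 5.83, 8.79 and 12.05 on normal protein arrays. It was between 11.996 and 12.56 on 6 arrays, high protein replicates 1, 2, 5 and 6 and normal protein replicates 1 and 2. The next array below them, normal protein replicate 5, was at 9.32, a gap of 2.68. Normal protein replicate 3 was at 8.26 and high protein replicate 4 at 7.49. On high protein replicate 3 and normal protein replicates 4 and 6 the spot was not flagged good, so those 3 values lie near the background. On the scanner's linear scale, the mean pixel of the spot minus its local background was 4025 to 7408 on the 6 high arrays, 120 to 625 on the 3 arrays in between, and 3 to 19 on the 3 arrays not flagged good. Both diets thus held arrays at both ends of the range. The span from lowest to highest array was 6.73 log2 units, and the median span of all tested genes was 0.68, with a 95th percentile of 1.94. Its low end is a spot not flagged good. The span was 10.4 with plain background subtraction and 12.2 in the authors' deposited table.

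Hoxa13, the other posterior member, which patterns the hindgut, genital tract and limb ends in mouse, stayed high on most arrays. Its values were 8.94, 10.35 and 10.94 (lowest, median and highest) under high protein, against 7.03, 10.5 and 10.72 under normal protein. The lowest was normal protein replicate 6, 1.91 below the next array. High protein replicates 3 and 4 followed at 9.03 and 8.94, and the remaining 9 arrays lay at 10.18 or above. Hoxb13 and Hoxa13 therefore shared their low arrays only in part. Normal protein replicates 3, 4 and 5 had Hoxb13 at 8.26, 5.83 and 9.32 but Hoxa13 at 10.70, 10.18 and 10.53. The span of Hoxa13 over arrays was 3.91, and 1.99 without normal protein replicate 6.

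Hoxb6 and Hoxb7, neighbours in the Hoxb cluster, were high on the same 3 arrays. Hoxb6 had 7.05, 7.39 and 10.87 (lowest, median and highest) under high protein, against 6.51, 7.001 and 10.95 under normal protein. For Hoxb7 these values were 6.59, 6.89 and 10.81 under high protein, against 6.38, 6.81 and 10.29 under normal protein. High protein replicates 3 and 4 and normal protein replicate 6 made up the high end for both genes. A gap of 3.33 log2 units separated them from the other 9 arrays for Hoxb6, and 3.20 for Hoxb7. In the scanner's intensities, Hoxb6 was at 1848, 1694 and 1638 on those arrays and at 27 to 117 on the others. These 3 arrays sit on 2 of the 3 slides, and each of those slides also holds arrays with low Hoxb6.

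Hoxd9, a gene from the middle of the Hoxd cluster known from limb and trunk patterning in mouse, had 6.88, 7.51 and 8.86 under high protein, against 6.51, 7.30 and 9.52 under normal protein. Normal protein replicate 6 and high protein replicate 3 were the 2 highest arrays, at 9.52 and 8.86. High protein replicate 4, one of the 3 arrays with high Hoxb6, came next at 7.75 and lay close to high protein replicate 2 at 7.58.

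Hoxd10, its neighbour in the cluster, needed in mouse for limb-innervating motor neurons, followed another order. It had 7.79, 8.29 and 9.22 under high protein, against 6.28, 7.60 and 8.51 under normal protein. The 3 highest arrays were high protein replicates 2, 5 and 3, and the lowest was normal protein replicate 3, at 6.28 on a spot that was not flagged good.

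Hoxa11, which acts in limb, kidney and uterus of mouse, spanned 1.47 log2 units. Its values were 7.70, 7.95 and 9.01 under high protein, against 7.99, 8.57 and 9.17 under normal protein. The 6 arrays with the highest Hoxb13 were the 6 with the lowest Hoxa11, between 7.70 and 8.07. On the other 6 arrays Hoxa11 lay between 8.34 and 9.17.

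Hoxa7, from the middle of the Hoxa cluster, spanned 1.64 log2 units. It had 9.48, 10.06 and 11.13 under high protein, against 9.93, 10.14 and 10.56 under normal protein. High protein replicates 3 and 4 were highest, at 11.13 and 11.03, whereas normal protein replicate 6, the third array with high Hoxb6, was at 10.20 and inside the range of the others.

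**Figure D1:**
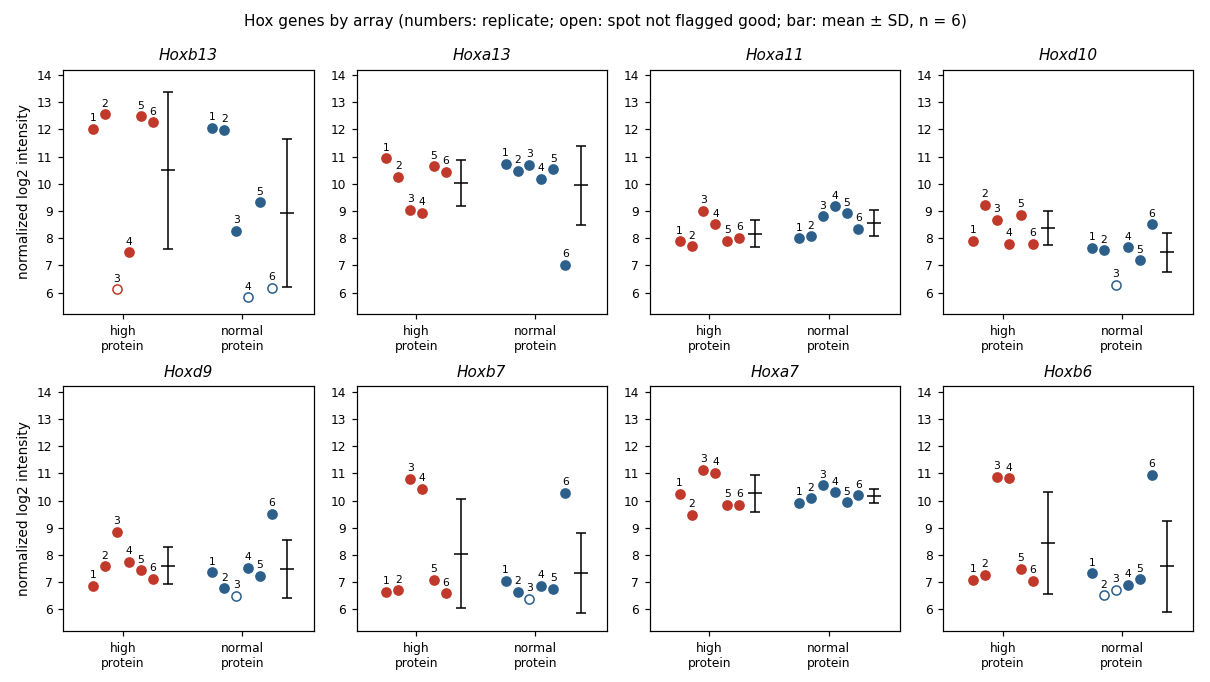
Normalized log2 intensity (vertical axis) of each of the 8 Hox genes on the 6 high protein arrays (red, left) and the 6 normal protein arrays (blue, right). Numbers are replicates, open circles are spots not flagged good, and bars are the mean ± SD of 6 arrays. Hoxb6 and Hoxb7 stand above 10 on high protein replicates 3 and 4 and normal protein replicate 6, and the diets overlap for every gene.

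Likeness between genes was measured as Pearson's r of the normalized log2 values over the 12 arrays, without a test, since the genes were chosen for their pattern and the arrays fall into separate clusters for Hoxb13, Hoxb6 and Hoxb7. All pairs share the same 12 arrays and their normalization. Of the 28 pairs, 3 had r above 0.8 and 4 had r below -0.8. Hoxb6 and Hoxb7 were the most alike, with r of 0.99 and Spearman's rho of 0.87, and Hoxd9 had r of 0.85 with Hoxb6 and 0.84 with Hoxb7. Hoxa13 ran opposite to all 3, with r of -0.90 with Hoxd9, -0.88 with Hoxb6 and -0.86 with Hoxb7. By rank, the correlations of Hoxa13 were -0.78 with Hoxd9, -0.47 with Hoxb6 and -0.55 with Hoxb7, and those of Hoxd9 were 0.85 with Hoxb6 and 0.87 with Hoxb7. Hoxb13 and Hoxa11 ran opposite to each other, with r of -0.85 and rho of -0.88. Within the diets that r was -0.97 over the 6 high protein arrays and -0.70 over the 6 normal protein arrays.

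Hoxb13 and Hoxb6 were not mirror images. Their r was -0.62, but rho was only -0.13. No array had both genes high, while normal protein replicates 3, 4 and 5 had Hoxb6 at 6.71, 6.90 and 7.10 and Hoxb13 below 10. Those 3 arrays kept Hoxa13 at 10.18 or above and had Hoxa11 between 8.80 and 9.17. The combinations seen were Hoxb13 at 11.996 or above with low Hoxb6 and low Hoxa11 on 6 arrays, high Hoxb6 with Hoxb13 at 7.49 or below on 3 arrays, and low Hoxb6 with Hoxb13 at 9.32 or below on 3 arrays. The first combination was seen on 4 high protein and 2 normal protein arrays, the second on 2 and 1, and the last on 0 and 3.

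**Figure D2:**
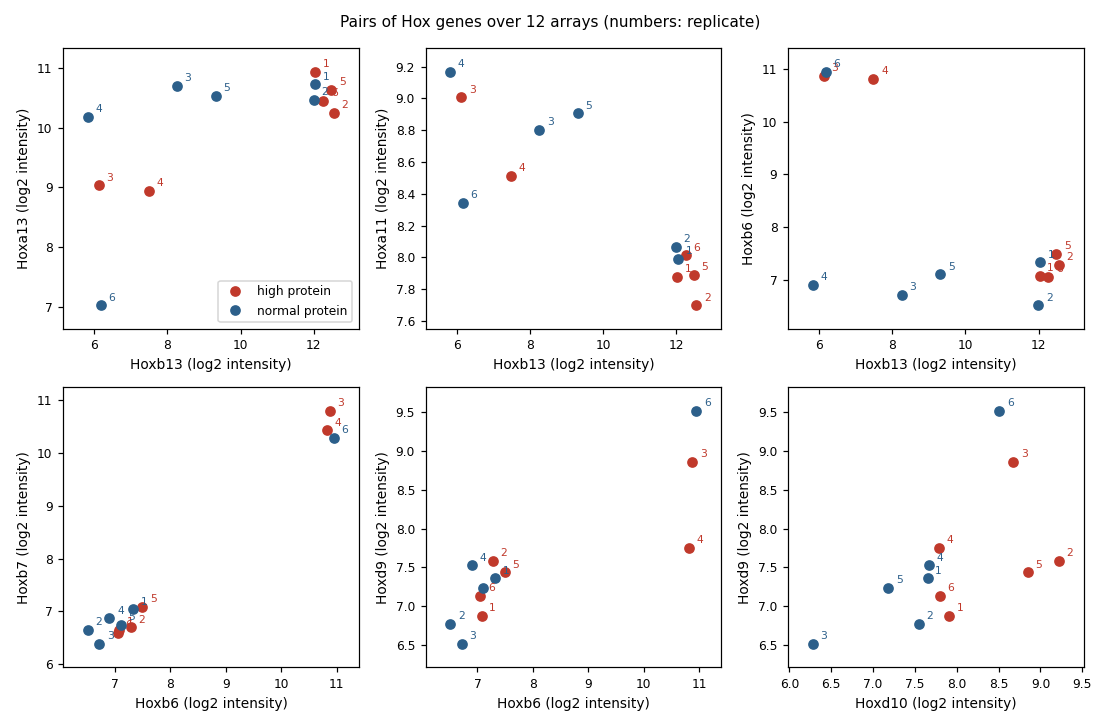
Pairs of Hox genes plotted against each other, both axes in normalized log2 intensity, 1 point an array, red for high protein and blue for normal protein, with replicate numbers. Hoxa11 is at 8.07 or below on the 6 arrays with the highest Hoxb13, and Hoxb6 and Hoxb7 rise together on 3 arrays.

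Among 2034 other genes with a symbol and a span of at least 1 log2 unit, the 5 nearest to Hoxb13 were B3gnt7, Sftpd, Sval1, Fxyd4 and Tgm3, with r between 0.97 and 0.99. B3gnt7 is a glycosyltransferase that builds lactosamine chains, Sftpd is surfactant protein D, a lectin of mucosal defence, Fxyd4 regulates the sodium pump, and Tgm3 cross-links proteins. B3gnt7 was at 7.54 to 13.65 on high protein arrays, against 7.24 to 13.20 on normal protein arrays, and Fxyd4 at 6.102 to 13.73 against 5.95 to 12.33. Both were high on the same 6 arrays as Hoxb13. The 5 genes running most clearly opposite to Hoxb13 were Golm2, Tac4, Aoc1, Bpifb9a and Pde2a, with r between -0.95 and -0.93. Aoc1 is diamine oxidase, which breaks down histamine, Tac4 a tachykinin precursor, and Pde2a a phosphodiesterase of cyclic nucleotides. Bpifb9a had the widest span of the 5, at 6.68 to 14.32 on high protein arrays, against 6.54 to 13.79 on normal protein arrays.

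Gsta3, Bmp3, Slc16a11, Capn2 and Napsa were nearest to Hoxb6, with r between 0.89 and 0.95, and the first 3 were also the nearest to Hoxb7. By rank the correlation with Hoxb6 was 0.343 for Napsa and between 0.578 and 0.755 for the others. Gsta3 is a glutathione transferase and Bmp3 a secreted member of the BMP family. Gsta3 was at 9.38, 9.13 and 9.36 on high protein replicates 3 and 4 and normal protein replicate 6, and between 7.29 and 8.18 on the other arrays. The 3 genes nearest to Hoxa13 were Grem1, a secreted BMP antagonist (r of 0.94), Adh1c, an alcohol dehydrogenase (0.94), and Trit1, a tRNA-modifying enzyme (0.92). Grem1 was lowest in normal protein replicate 6, at 6.99, as was Hoxa13. Its rank correlation with Hoxa13 was 0.56, and r was 0.89 over the 6 high protein arrays alone. For Adh1c and Trit1 the rank correlations were 0.77 and 0.73, and r over the high protein arrays was 0.94 and 0.86.

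Slc35g2, Aldh1b1 and Ghrl, which encodes the hormone ghrelin, were nearest to Hoxa11, with r between 0.91 and 0.92. Ghrl was at 5.95 to 8.59 under high protein, against 5.93 to 8.84 under normal protein. Phf17 (r of 0.94) and Shank3 (0.92) were among the genes nearest to Hoxd9, and both were highest in normal protein replicate 6. Their rank correlations with Hoxd9 were 0.755 and 0.72, and r over the high protein arrays alone was 0.90 and 0.76. Csf2ra, Glud1 and Mgat4a were nearest to Hoxa7 (0.89 to 0.94). Over the normal protein arrays alone r with Hoxa7 was 0.93 for Csf2ra, 0.32 for Glud1 and 0.60 for Mgat4a. The nearest to Hoxd10 reached lower values, 0.86 for Hhex, a homeobox gene of endoderm, 0.80 for Ephx2 and 0.79 for Gas5. Over the high protein arrays alone these were 0.68 for Hhex, 0.78 for Ephx2 and 0.07 for Gas5.

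**Figure D3:**
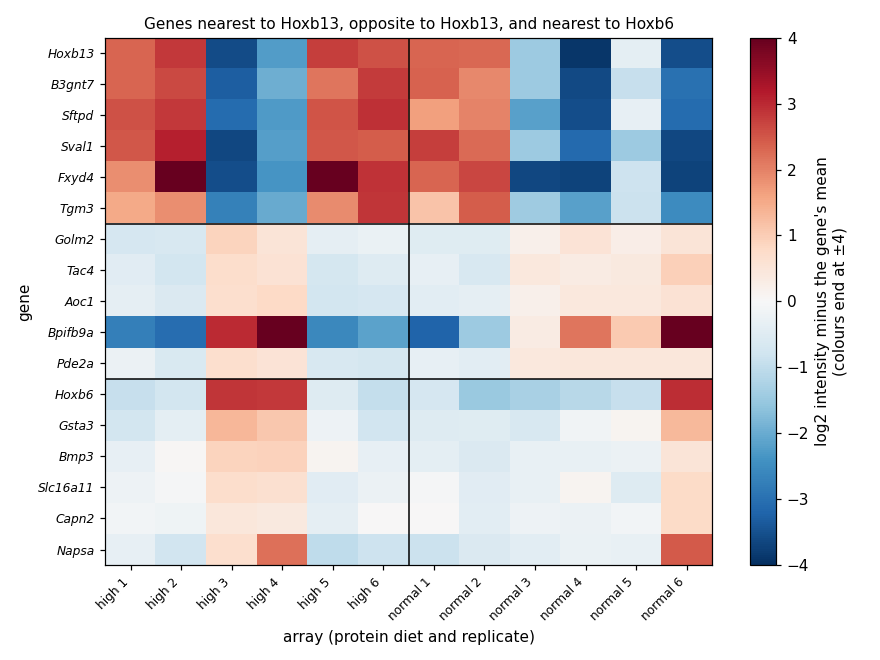
Log2 intensity minus the gene's mean over 12 arrays (colour, ending at 4 in either direction) for Hoxb13 and the genes nearest and most opposite to it, and for Hoxb6 and the genes nearest to it. Columns are arrays, high protein left of the line and normal protein right of it. B3gnt7, Sftpd, Sval1, Fxyd4 and Tgm3 are high on the 6 arrays where Hoxb13 is high.

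Genes with known regional expression in the gut were described on the same arrays. They were listed with earlier results of these data known, and Fxyd4 among them is also among the genes nearest to Hoxb13. They are therefore no independent view. Of 24 listed regional colon genes 20 were tested, and their median span over arrays was 2.04 log2 units, against 0.68 over all tested genes. Retnlb, a goblet cell protein of the colon, had the widest span of these 20 after Fxyd4, and ran opposite to Hoxb6 with r of -0.96. It was at 6.09, 6.74 and 6.22 on high protein replicates 3 and 4 and normal protein replicate 6, and at 11.14 or above on the others. Fabp1, a fatty acid carrier of the small intestine and proximal colon, was at 12.11, 12.48 and 12.69 on those 3 arrays and at 10.47 or below elsewhere, with r of 0.84 with Hoxb6 and -0.87 with Hoxb13. Fabp2, its relative, averaged 9.36 ± 1.25 under high protein and 10.91 ± 1.21 under normal protein (SD, n = 6 each), a difference of -1.55 ± 0.63 (SE) with an adjusted limma p of 0.71. In all, 5 of 12 listed small intestine genes were tested, and the others did not share the pattern of Fabp1. The r with Hoxb6 was 0.27 for Fabp2, -0.55 for Apoa1, -0.01 for Rbp2 and 0.29 for Anpep. Apoa4, Apoc3, Lct, Alpi, Mttp and Slc5a1, on the array by name, did not pass the filter, and 4 of these 6 were flagged good on no array. Atp12a, a potassium pump of the distal colon, followed Hoxb13 (r of 0.94). It had 6.27 to 12.78 under high protein, against 5.83 to 11.17 under normal protein. The regional colon genes did not all do so. The r with Hoxb13 was 0.83 for Scnn1a and Slc5a8, but -0.85 for Car1 and -0.795 for Muc2. It was 0.04 for Slc26a3, -0.11 for Car4, and -0.18 for Slc9a2 and Zg16. Foxa2, a transcription factor of endoderm, had r of 0.92 with Hoxb13 and was lowest in normal protein replicate 6, at 6.83.

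Marker levels of other cells moved with some of the same arrays. The mean of the 6 endothelial markers tested (Cdh5 and Tek did not pass the filter) was 9.02 in normal protein replicate 6, against 8.001 to 8.37 on high protein arrays and 7.94 to 8.14 on the other normal protein arrays. Kdr, the VEGF receptor of endothelium, reached 11.08 there, and S100b, a marker of glia, 11.72, against 6.78 to 8.15 on the other arrays. The other neural and glial markers tested did not stand out in that way: Elavl4, Uchl1, Prph and Snap25 lay inside the range of the other arrays there, and Sox10 was at 6.94, against 6.39 to 6.84. On that array Hoxa13 was lowest and Hoxd9 highest, and the part of these cells in either was not tested. Smooth muscle markers (10 of 12 tested) had their lowest mean in high protein replicate 4, at 10.45, against 11.04 to 11.40 on the other high protein arrays and 11.09 to 11.70 on normal protein arrays. None of the listed markers of squamous epithelium, prostate and male tract, or urothelium, tissues that lie near the distal end and where Hoxb13 or Hoxa13 are also known, passed the filter (11, 8 and 5 on the array by name). Of these, 9, 5 and 4 were flagged good on no array, and the rest on too few. Markers present on fewer than 6 arrays could not pass, so absence of such tissue does not follow.

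Diet was tested with limma over 10451 genes, and 0 of the 8 Hox genes were called at an adjusted p of 0.05 (0% of all genes tested were called). At an unadjusted p of 0.05, 1 of the 8 was higher and 0 were lower under high protein, against 3.66% of all genes higher and 2.98% lower (694 genes or 6.64% in all). The difference, high protein minus normal protein, was above 0 for 7 of the 8 and below 0 for 1, with a median of 0.42 against 0.01 for all genes tested. How many of all genes lay above 0 was not counted, and the 8 genes share arrays and are not independent. Those of Hoxa13, Hoxd9 and Hoxa7 were only 0.10, 0.12 and 0.10, and changed sign when single arrays were left out. With arrays scaled to their 75th percentile the difference of Hoxd9 turned below 0. The values of both diets overlapped for each of the 8. How many of all genes overlap was not counted, so this is no trait of the Hox genes. The narrowest 95% interval was that of Hoxa11, from -0.93 to 0.17.

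Hoxd10 was the gene with the low unadjusted p. It averaged 8.37 ± 0.62 under high protein and 7.47 ± 0.73 under normal protein (SD, n = 6 each). The difference was 0.90 ± 0.35 (SE), with a 95% interval of 0.15 to 1.65. The limma p was 0.023 unadjusted and 0.70 adjusted over all genes, and an exact two-sided permutation test gave p = 0.037, not adjusted. The permutation test used the same values, and gave p of 0.21 to 0.87 for the other Hox genes described. All 6 high protein arrays lay above the normal protein mean of Hoxd10. Without normal protein replicate 3, whose spot was not flagged good, the difference was 0.66. Within the slides, which hold 2 arrays of each diet apiece, it was 1.596, -0.05 and 1.15, close to 0 in slide 2.

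Hoxb13 had the widest difference and the widest error, 10.49 ± 2.89 under high protein and 8.94 ± 2.72 under normal protein (SD, n = 6 each). The difference of 1.55 ± 1.43 (SE) had a 95% interval of -1.53 to 4.64, with an adjusted limma p of 0.81. Leaving out 1 array moved it between 0.93, without normal protein replicate 4, and 2.43, without high protein replicate 3. It was 2.14, 2.13 and 0.39 within slides 1, 2 and 3. Hoxa11 was the gene that was lower under high protein, at 8.17 ± 0.49 against 8.55 ± 0.48 under normal protein. Its difference was -0.38 ± 0.25 (SE), with an adjusted limma p of 0.75, and it was below 0 within each slide, at -0.61, -0.36 and -0.17.

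Hoxb6 averaged 8.43 ± 1.88 under high protein and 7.58 ± 1.67 under normal protein, and Hoxb7 8.05 ± 2.01 under high protein and 7.33 ± 1.47 under normal protein. Their differences were 0.85 ± 0.90 and 0.72 ± 0.89 (SE), with adjusted limma p of 0.83 and 0.86. The 3 arrays that stood apart set these values. Without high protein replicate 3 the differences were 0.36 and 0.17, and without normal protein replicate 6 they were 1.52 and 1.31. Within slides 1, 2 and 3 they were 0.16, -0.09 and 2.48 for Hoxb6, and -0.03, -0.0018 and 2.19 for Hoxb7.

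The differences of Hoxa13 (0.10 ± 0.60), Hoxd9 (0.12 ± 0.46) and Hoxa7 (0.10 ± 0.26, all SE) were small beside their errors, with adjusted limma p of 0.97, 0.96 and 0.93, and each changed sign when single arrays were left out. That of Hoxa13 was -0.48 without normal protein replicate 6, that of Hoxd9 -0.13 without high protein replicate 3 and 0.53 without normal protein replicate 6, and that of Hoxa7 -0.07 without high protein replicate 3. Their 95% intervals ran from -1.20 to 1.40, from -0.88 to 1.11 and from -0.47 to 0.67. Within slides 1, 2 and 3 the values were -0.12, 0.91 and -0.49 for Hoxa13, 0.30, -0.94 and 0.9999 for Hoxd9, and -0.37, 0.38 and 0.29 for Hoxa7.

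**Figure D4:**
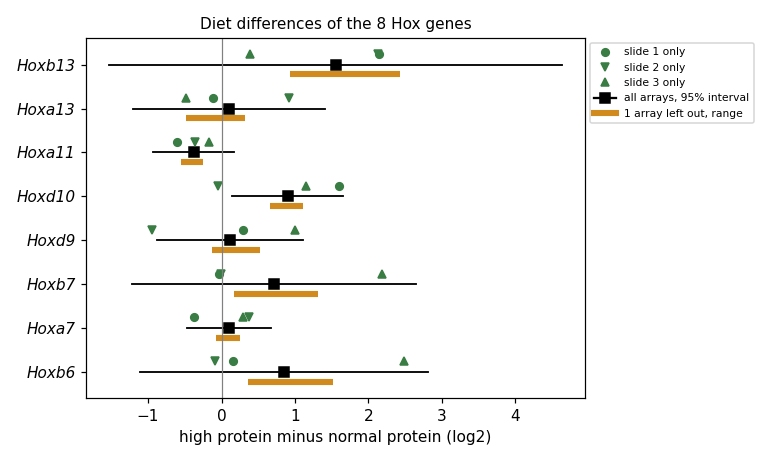
Diet difference of each Hox gene, high protein minus normal protein in log2 units (horizontal axis). Squares and lines are the difference over all 12 arrays with its 95% interval, the thick bars the range when 1 array is left out, and the green marks the differences within each slide. Only the interval of Hoxd10 lies above 0, and its slide 2 value is -0.05.

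None of the genes listed as acting with or upstream of Hox proteins passed the diet test in limma. Of 9 listed cofactors, the Pbx, Meis and Pknox proteins that bind DNA together with Hox proteins, 6 were tested and 0 were called. Their median difference was -0.05, against 0.01 for all genes tested. Pbx3 had the widest span, highest in high protein replicate 3 at 9.28, against 7.88 to 8.87 on the other arrays. Of 24 listed regulators, among them Cdx1 and Cdx2, the caudal factors that act on Hox genes and on gut identity, and Polycomb and Trithorax proteins, 16 were tested and 0 were called. Cdx2 averaged 11.63 ± 0.51 under high protein and 12.07 ± 0.15 under normal protein, a difference of -0.44 ± 0.20 (SE) with an unadjusted limma p of 0.044 and an adjusted p of 0.73. High protein replicate 2, at 10.72, was its lowest array, and without it the difference was -0.26, an alternative added after the data were seen. Cdx1 differed by -0.30 ± 0.14 (SE), with an adjusted limma p of 0.73. The r of Cdx2 with Hoxb13 was -0.61. Of 19 listed gut transcription factors 12 were tested and 0 were called, with a median difference of 0.16. Regional colon genes had 0 calls among 20 and a median difference of -0.09. The markers of epithelium, smooth muscle, fibroblasts and matrix, endothelium, neurons and glia, immune cells and small intestine also gave 0 calls, with list medians between -0.32 and -0.05. Zg16, a goblet cell lectin, had the smallest p among the regional colon genes. It averaged 12.44 ± 0.56 under high protein and 13.56 ± 0.72 under normal protein, a difference of -1.12 ± 0.33 (SE) with an adjusted limma p of 0.68.

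Of the 31 other Hox genes listed, 21 had probes on the array by name, and 0 passed the filter. Of these, 16 were flagged good on no array and 5 on 1 to 5 arrays. The next named genes were chosen after their values were seen. Hoxd13, the most posterior Hoxd gene, was flagged good on high protein replicates 2, 5 and 6 and normal protein replicate 1, all among the 6 arrays with the highest Hoxb13, and reached 8.77 in high protein replicate 2 and 8.37 in high protein replicate 5. On the other 10 arrays it lay between 5.88 and 6.96, mostly on spots not flagged good, so no diet difference is given. Hoxa3 and Hoxa6 were flagged good on 2 arrays each. Hoxb4 was flagged good on high protein replicate 3 and normal protein replicate 6, and Hoxc6 on normal protein replicate 6 alone, at 7.24. A probe that the array describes only as a fragment of Hox2.4 was flagged good on high protein replicates 3 and 4 and normal protein replicate 6, at 7.65, 7.63 and 6.99. These are the 3 arrays with high Hoxb6 and Hoxb7. Probes described as Hoxa9l, similar to Hox-A10 and Hox-A5 were flagged good on all 12 arrays, with diet differences of -0.17 ± 0.21, -0.12 ± 0.17 and 0.32 ± 0.20 (SE) and adjusted limma p of 0.86, 0.88 and 0.75.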

How the data were processed

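Total RNA was measured on single-colour arrays (Cy3), 4 to a slide, 3 slides with 2 arrays of each diet. Per the file headers, the wavelength was 532 nm, the photomultiplier gain 600 and the software GenePix Pro 6.1.0.4. The deposited scanner tables hold linear spot and local background intensity, not normalized, a flag and the percent of saturated pixels, which was 0 at the 8 probes. The authors deposited a table of log2 values, for which the submitters' processing notes name RMA. Its IDs matched the scanner values only when moved by 1 row (lowest r over arrays 0.80, against 0.08 as given), so it served only as an alternative, with column medians of 4.36 to 4.45, and its centring is not known.

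Here, in limma 3.58.1 (R 4.3.3), mean pixels were corrected by normexp (offset 50) against the local background, and gene spots were quantile normalized over 12 arrays. The offset compresses low values. Spots of a probe were averaged and probes flagged good on fewer than 6 arrays left out, and each gene kept its brightest probe by mean over all arrays. Of 30367 probes, 10451 genes were tested, 8854 of them with a symbol. Diets were compared by lmFit and eBayes with Benjamini-Hochberg adjustment. The number of arrays limits the precision. The fit was tested on simulated data.

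The members and all gene lists (other Hox genes, cofactors, regulators, gut transcription factors, regional colon genes, small intestine, and markers of other tissues and cells) were chosen with earlier results of these data known. Besides the members, genes were named by rule: those nearest by r (5 for Hoxb13 and Hoxb6, 5 most opposite to Hoxb13, 3 for the others), and, from the lists, those with the widest span or smallest p. A gene that this rule names for Hoxd9 is not reported here. Exceptions are said to be chosen after their values were seen.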

Additional observations from a re-analysis of the deposited data

Results flagged for a closer look

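Among the members and the list means, 38 groups of 6 arrays were examined for a single array far from the rest, and 8 held one, by the gap to the nearest array over the whole range (Dixon's criterion). The criterion serves here as a description, not a test. The members and lists were chosen with results of these arrays known. The groups also share arrays, so the flags are not independent. The count of flags is therefore not set against the 1 in 20 groups that chance would flag. Normal protein replicate 6 stood apart from the other normal protein arrays in 6 of the 8. It was at 7.03 for Hoxa13, against 10.18 to 10.72, at 9.52 for Hoxd9, against 6.51 to 7.53, at 10.29 for Hoxb7, against 6.38 to 7.04, and at 10.95 for Hoxb6, against 6.51 to 7.33. The same array had the lowest mean of regional colon genes, 8.82 against 9.83 to 10.41, and the highest mean of endothelial markers, 9.02 against 7.94 to 8.14. High protein replicate 3 stood apart from the other high protein arrays in the mean of Hox cofactors, at 7.93 against 7.43 to 7.61, and in the mean of gut transcription factors, at 8.24 against 8.68 to 8.83.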

How the results depend on the processing

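No Hox gene was called under any alternative run: a normexp offset of 16, scaling to the 75th percentile or the median, median pixels, plain background subtraction, no filter or a filter on all 12 arrays, the mean of a gene's probes, the authors' value table, slide or replicate as a block, single slides and 1 array left out. Over all genes the count of calls was 0 except for 1 within slide 3, where Bik, named after its value was seen, was called (difference 5.89, adjusted limma p of 0.006). The lowest adjusted limma p over all genes was 0.13 to 0.92 under the other alternatives. Unadjusted limma p under 0.05 gave 383 genes higher and 311 lower under high protein, but 318 and 481 with 75th percentile scaling and 1128 and 78 with median scaling, which moved the median of all genes to 0.10. Alternatives turned the sign of the diet difference for the Hox genes other than Hoxb13 and Hoxa11. Hoxd9 was at -0.00369 with 75th percentile scaling. Within slide 1 Hoxa13 was at -0.12, Hoxb7 at -0.034 and Hoxa7 at -0.37, within slide 2 Hoxd10 at -0.0505, Hoxd9 at -0.94, Hoxb7 at -0.00179 and Hoxb6 at -0.0876, and within slide 3 Hoxa13 at -0.49. With 1 array left out, Hoxa13 ran from -0.48 to 0.32, Hoxd9 from -0.13 to 0.53 and Hoxa7 from -0.0716 to 0.26. The cause was not tested. Same-numbered arrays deviated together (r over 0.1) in 3 of 6 numbers, each of them with its own number as best partner, and not in the other 3, so the numbers were not taken to pair the arrays. With a replicate block 0 genes were called and 813, against 694, had an unadjusted limma p under 0.05. Hoxa11 then had an unadjusted limma p of 0.036 (0.16 without the block) and an adjusted p of 0.63, and Hoxd10 0.050 and 0.63. The span of Hoxb13 was 10.4 log2 units with plain background subtraction and 12.2 in the authors' deposited table, against 6.73, and the cause was not tested. A filter on all 12 arrays left out Hoxb13, Hoxd10, Hoxd9, Hoxb7 and Hoxb6.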
